A study of Mus musculus with 6 samples.

Results

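The 10 genes described here encode the 3 chains of fibrinogen (Fga, Fgb and Fgg) and 7 other products of the acute-phase response: the protease inhibitors Serpina10 and Serpina3n, haptoglobin (Hp), the serum amyloid A proteins Saa1, Saa2 and Saa3, and the signalling inhibitor Socs3. They were chosen by symbol because earlier results of these same data had shown several of them at different levels on the 2 diets. All 10 were found among the 40993 genes of the table. Their levels and differences are therefore given as a description, with no test. The samples were whole kidneys of C57BL/6 mice aged 2 months, 3 fed a standard diet and 3 an adenine-enriched diet, which is used in rodents to injure the renal tubules through a poorly soluble product of adenine. No sample carries an engineered allele according to the labels, and they state neither the adenine dose nor the time on the diet. Levels are in FPKM, fragments scaled by transcript length and by the depth of the library, so levels of different genes can be compared.

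The acute-phase response is best known in the liver, where interleukin-6 and related cytokines act through the shared receptor chain gp130, the JAK kinases and the transcription factor STAT3, and interleukin-1 and tumour necrosis factor act through NF-kappaB. Hepatocytes then secrete fibrinogen, serum amyloid A, haptoglobin and protease inhibitors in greater amounts. STAT3 also induces SOCS3, which binds gp130 and the JAKs and limits the signal. Fibrinogen is a dimer of 3 different chains joined by disulphide bonds, and thrombin converts it to fibrin. Epithelial cells outside the liver, renal tubule cells among them, are known to transcribe fibrinogen genes in injury.

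Of the 10 genes, 7 had their lowest adenine library above their highest standard library: Fga, Fgb, Fgg, Serpina10, Serpina3n, Hp and Socs3. Tests were limited to 15431 genes whose average over the 6 libraries reached 0.5 FPKM, and in these such a gap upward was found in 44.4% and one downward in 11.8%. The median log2 difference of all those genes was 0.25, and it was -0.0042 after scaling by the median of ratios. Calls of a rise or fall below were made against no difference, without allowing for that shift, except where scaling is named. Saa1, Saa2 and Saa3 did not separate the diets. Ordered by mean level on the standard diet, Fga (13.8 FPKM) stood highest, followed by Fgg (3.89 FPKM), Hp (1.27 FPKM) and Socs3 (1.14 FPKM), with the other 6 below 1 FPKM. On the adenine-enriched diet the order was Fgg (75.3 FPKM), Fga (43.8 FPKM), Socs3 (28.5 FPKM), Serpina10 (24.3 FPKM), Serpina3n (16.8 FPKM), Fgb (9.64 FPKM) and Hp (7.48 FPKM). On the standard diet the ranges of Hp and Socs3 overlapped, so these neighbours in the order did not differ beyond their spread. On the adenine-enriched diet Fgg lay above Fga in every library pair, and from Fga down to Hp the range of each gene overlapped that of the next.

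**Figure D1:**
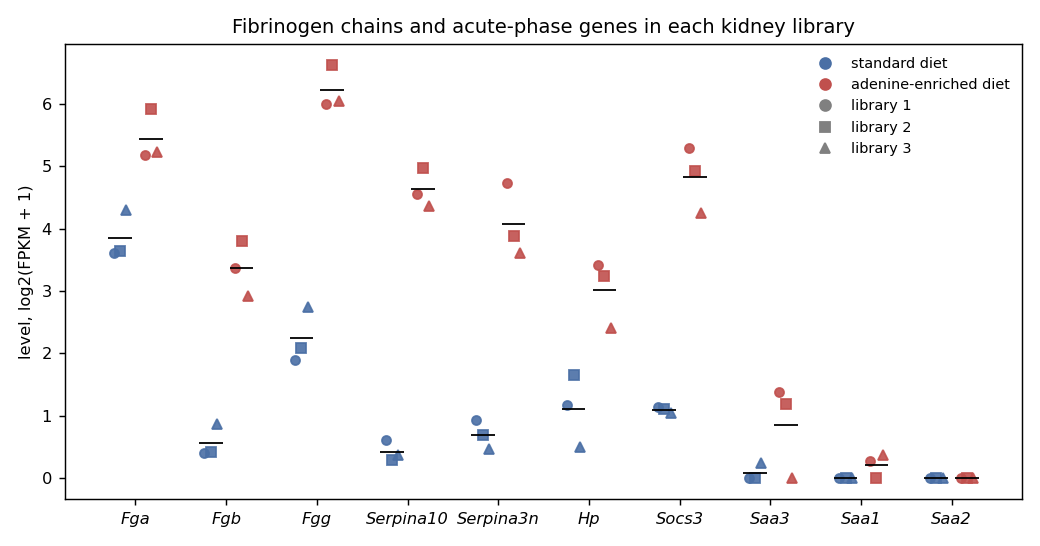
Level of each gene as log2(FPKM + 1) in the 3 standard (blue) and 3 adenine (red) libraries, with the symbol shape giving the library number and a black line the group mean. The 3 fibrinogen chains, Serpina10, Serpina3n, Hp and Socs3 have separate groups, and the Saa genes lie at or near 0.

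The fibrinogen genes lie side by side on chromosome 3, with Fgg and Fga on the plus strand and Fgb facing them on the minus strand (GRCm38 coordinates of the deposited table, which cover all exons and introns). Fgg (ENSMUSG00000033860) spans chr3:83007859-83015053, Fga (ENSMUSG00000028001) chr3:83026153-83033615 and Fgb (ENSMUSG00000033831) chr3:83042247-83049803. Because all 3 genes were higher on the adenine-enriched diet, their upstream sequences are shown. They were taken from the RefSeq promoter table of GRCm38.p6, which held 8 of the 10 genes (not Hp or Serpina10). Each runs 5′ to 3′ on the gene's own strand and ends at the RefSeq start, except that 77 bases next to the Fga start, which an exon model of GENCODE M21 covers, are left out. Capitals mark matches to 5 motifs searched on both strands. The Fgg stretch is chr3:83007474-83007723 on the plus strand, the Fga stretch chr3:83025903-83026075 on the plus strand and the Fgb stretch chr3:83049864-83050113 on the minus strand. Serpina3n, at chr12:104406458-104406707 on the plus strand, is shown for comparison as a gene on another chromosome. It was also higher on the adenine-enriched diet, with another order of the libraries.
Fgg: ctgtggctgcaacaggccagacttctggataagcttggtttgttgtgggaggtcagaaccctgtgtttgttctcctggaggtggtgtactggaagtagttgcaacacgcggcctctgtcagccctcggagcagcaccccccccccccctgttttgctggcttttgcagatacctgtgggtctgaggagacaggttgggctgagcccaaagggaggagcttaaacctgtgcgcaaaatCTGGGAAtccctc
Fga: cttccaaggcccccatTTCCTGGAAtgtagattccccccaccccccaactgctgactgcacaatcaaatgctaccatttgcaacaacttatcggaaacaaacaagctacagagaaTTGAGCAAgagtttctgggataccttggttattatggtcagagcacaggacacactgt
Fgb: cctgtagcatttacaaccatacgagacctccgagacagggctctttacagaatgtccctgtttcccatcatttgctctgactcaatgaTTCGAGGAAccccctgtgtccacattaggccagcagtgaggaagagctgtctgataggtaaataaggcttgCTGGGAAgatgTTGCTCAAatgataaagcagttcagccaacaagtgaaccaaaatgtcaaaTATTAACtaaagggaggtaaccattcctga
Serpina3n: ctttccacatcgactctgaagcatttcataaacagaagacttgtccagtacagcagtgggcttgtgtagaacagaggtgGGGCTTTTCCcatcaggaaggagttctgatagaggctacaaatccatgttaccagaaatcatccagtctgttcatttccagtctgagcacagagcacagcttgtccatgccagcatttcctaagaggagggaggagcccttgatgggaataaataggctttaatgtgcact

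The motifs were a STAT-type element (TTCNNNGAA, in 7.01% of the 32817 promoters of the table), the type 2 interleukin-6 element (CTGGGAA, 9.10%), a C/EBP-type element (TTGCNNAA, 9.57%), an HNF1-type element (GTTAATN, 6.41%) and an NF-kappaB-type element (GGG, then 3 bases of any kind, then TTCC, 4.65%). Those shares are for windows of 250 bases before the RefSeq start, from which positions are counted. The models of Fgg and Fgb in the deposited table begin 135 and 60 bases downstream of it, and those bases were not searched. The Fgb window held TTCGAGGAA at -162 to -154 from the start, CTGGGAA at -91 to -85, TTGCTCAA at -80 to -73 and TATTAAC at -30 to -24. The Fga window held the STAT-type TTCCTGGAA at -234 to -226 and the C/EBP-type TTGAGCAA at -135 to -128, with GATTAAC at -44 to -38 in the part not printed. The Fgg window held only CTGGGAA, at -13 to -7, and the Serpina3n window only the NF-kappaB-type GGGCTTTTCC, at -171 to -162. In the other windows, Saa1, Saa2 and Saa3 each held a C/EBP-type match and Socs3 the STAT-type TTCTTAGAA. A match is a string of letters and does not show that a protein binds there.

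Fgg, the gamma chain, which carries the platelet-binding end of fibrinogen, stood at 2.73, 3.25 and 5.68 FPKM in the standard libraries and at 62.9, 98.1 and 64.9 FPKM in the adenine libraries. Every adenine library was more than 10 times the highest standard library, with a lowest-to-highest ratio of 11.1. The means were 3.89 ± 1.57 and 75.3 ± 19.8 FPKM (SD, n = 3 each), a ratio of 19.4, and the difference on the log2(FPKM + 1) scale was 3.98 ± 0.27 (SE). In whole kidney RNA, more cells of a type and more RNA per cell cannot be told apart, here or for any gene below.

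Fgb, the beta chain, was near the bottom of the measured range on the standard diet, at 0.319, 0.338 and 0.820 FPKM. It reached 9.36, 13 and 6.56 FPKM on the adenine-enriched diet. The groups were separate, with means of 0.492 ± 0.284 and 9.64 ± 3.23 FPKM (SD, n = 3 each), a ratio of 19.6 and a log2 difference of 2.81 ± 0.26 (SE). The pseudocount of 1 compresses a gene that starts this low, and with a pseudocount of 0.1 the log2 difference was 4.08. GENCODE M21 extends Fgb by 2106 bases at its 3′ end beyond the model of the table, which enters the length used for FPKM and so its level relative to the other chains.

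Fga, the alpha chain, which carries a thrombin-cleaved peptide and some of the sites of fibrin cross-linking, already stood at 11.2, 11.5 and 18.7 FPKM on the standard diet. It was at 35.3, 59.6 and 36.5 FPKM on the adenine-enriched diet. The groups were separate but closer than for the other chains, the lowest adenine library being 1.89 times the highest standard library. The means of 13.8 ± 4.21 and 43.8 ± 13.7 FPKM (SD, n = 3 each) gave a ratio of 3.18 and a log2 difference of 1.59 ± 0.26 (SE), or 1.31 after median-of-ratios scaling.

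The unequal rise changed the make-up of the fibrinogen transcripts. On the standard diet Fga made up 78.6%, 76.2% and 74.2% of the summed FPKM of the 3 chains, Fgg 19.1%, 21.6% and 22.6%, and Fgb 2.23%, 2.24% and 3.26%. On the adenine-enriched diet Fgg made up 58.5%, 57.5% and 60.1%, Fga 32.8%, 34.9% and 33.8%, and Fgb 8.70%, 7.62% and 6.08%. The leading chain was thus Fga in every standard library and Fgg in every adenine library, although the sum itself ranged from 14.3 to 25.2 FPKM and from 108 to 171 FPKM within the diets. The ratio of Fgg to Fga, which library scaling cannot alter, was 0.243, 0.283 and 0.304 on the standard diet and 1.78, 1.65 and 1.78 on the adenine-enriched diet. The ratio of Fga to Fgb fell from 35.2, 34.0 and 22.7 to 3.78, 4.58 and 5.57. The ratio of Fgg to Fgb overlapped between the diets, from 6.92 to 9.62 against 6.72 to 9.89.

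**Figure D2:**
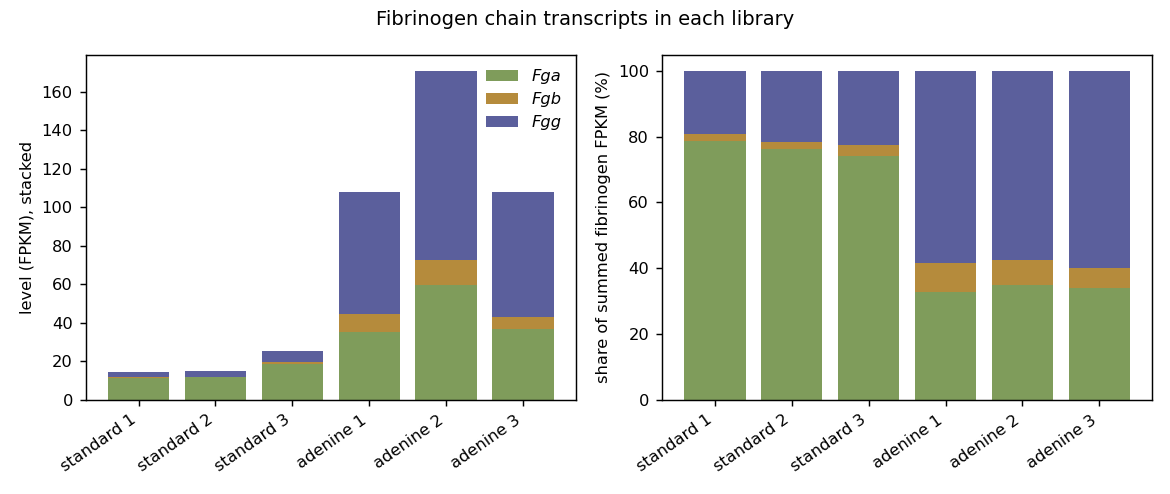
Left, FPKM of the fibrinogen chains stacked for each library; right, each chain's share of their summed FPKM in percent. Fga holds 74.2% to 78.6% of the sum in the standard libraries and 32.8% to 34.9% in the adenine libraries, where Fgg holds 57.5% to 60.1%.

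Within the standard diet, library 3 had the highest level of all 3 chains, and within the adenine-enriched diet library 2 did. No relation between the chains across libraries was tested.

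Serpina10 and Serpina3n are clade A serpins, secreted inhibitors that trap their target protease. Serpina10, the protein Z-dependent inhibitor of activated factor X (ENSMUSG00000061947, chr12:103614786-103631444, minus strand), stood at 0.532, 0.224 and 0.289 FPKM on the standard diet. It was at 22.7, 30.5 and 19.6 FPKM on the adenine-enriched diet. This was the widest gap among the 10 genes, the lowest adenine library being 36.9 times the highest standard one. The means were 0.348 ± 0.162 and 24.3 ± 5.64 FPKM (SD, n = 3 each), a ratio of 69.7 and a log2 difference of 4.21 ± 0.19 (SE), or 5.80 with a pseudocount of 0.1.

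Serpina3n, a mouse counterpart of alpha-1-antichymotrypsin (ENSMUSG00000021091, chr12:104406729-104414329, plus strand), stood at 0.901, 0.611 and 0.389 FPKM on the standard diet. On the adenine-enriched diet it was at 25.5, 13.7 and 11.2 FPKM. The groups were separate, and adenine library 1 was the highest, unlike Serpina10 and the fibrinogen chains. The means of 0.634 ± 0.256 and 16.8 ± 7.63 FPKM (SD, n = 3 each) gave a ratio of 26.5 and a log2 difference of 3.38 ± 0.30 (SE). Serpina3n belongs to a cluster of near copies, and its transcript was 82.6% identical to that of Serpina3g and 80.7% to that of Serpina3f over the aligned bases, so reads may be split between them.

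Haptoglobin binds free haemoglobin. Hp (ENSMUSG00000031722, chr8:109575130-109579172, minus strand) stood at 1.26, 2.14 and 0.413 FPKM on the standard diet and at 9.70, 8.42 and 4.33 FPKM on the adenine-enriched diet. The groups were separate by a factor of 2.03 between their nearest libraries, and library 3 was the lowest within each diet. The means were 1.27 ± 0.863 and 7.48 ± 2.80 FPKM (SD, n = 3 each), a ratio of 5.89 and a log2 difference of 1.91 ± 0.37 (SE).

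The serum amyloid A genes, whose products are apolipoproteins of the acute phase and, for Saa3, made mainly outside the liver in mice, were low, with Saa1 and Saa2 at the edge of detection. Saa3 (ENSMUSG00000040026, chr7:46711998-46715676, minus strand) was listed at 0, 0 and 0.189 FPKM on the standard diet and at 1.59, 1.29 and 0 FPKM on the adenine-enriched diet. The groups overlapped, since adenine library 3 was at 0. By the depth estimate below, the values came from about 13 and 10.5 fragments in adenine libraries 1 and 2 and about 1.17 in standard library 3. Saa1 (ENSMUSG00000074115, chr7:46740501-46742980, minus strand) was listed at 0 in the standard libraries and at 0.214, 0 and 0.289 FPKM in the adenine libraries, about 2.01 and 2.07 fragments. Saa2 (ENSMUSG00000057465, chr7:46751833-46754314, plus strand) was at 0 in all 6 libraries. For Saa1, 3 fragments correspond to 0.320 to 0.421 FPKM and for Saa2 to 0.420 to 0.553 FPKM, and the Saa1 values above lie below that, so presence or absence at such levels rests on about 2 fragments or fewer and does not separate the diets. The transcripts of Saa1 and Saa2 were 94.4% identical over 606 aligned bases, so reads of one could be given to the other or discarded.

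Socs3, the feedback inhibitor (ENSMUSG00000053113, chr11:117966079-117970047, minus strand), varied little among the standard libraries, at 1.21, 1.15 and 1.07 FPKM. It was at 38.1, 29.3 and 18.1 FPKM on the adenine-enriched diet. The groups were separate, the lowest adenine library being 14.9 times the highest standard one. The means of 1.14 ± 0.072 and 28.5 ± 10.02 FPKM (SD, n = 3 each) gave a ratio of 24.9 and a log2 difference of 3.72 ± 0.26 (SE).

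Across the 7 genes with separate groups, the adenine libraries ranked differently by gene. Adenine library 2 was the highest for 4 of them (the fibrinogen chains and Serpina10) and library 1 for the other 3 (Serpina3n, Hp and Socs3). Library 3 was the lowest for 5, and library 1 for Fga and Fgg. None of the 7 changed direction under any alternative run, although with separate groups only the scalings could have done that. Without adenine library 3 the groups of Saa3 also separated, and without adenine library 2 those of Saa1 did.

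The other genes of the pathway were taken by list, and unlike the members they were tested with limma over the 15431 genes, of which 29.7% rose and 6.84% fell at an adjusted p below 0.05 (4581 and 1056 genes). With the replicate number as a block these shares were 31.3% and 7.34%. After median-of-ratios scaling the split was even, with 2598 up and 2344 down. The lists were chosen with earlier results of these data known, and several hold genes known to respond to kidney injury.

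Among the cytokines that signal through gp130, 5 of 8 genes were measured above the minimum and 4 of them rose, with a median log2 difference of 1.32 over the 5. Lif and Il11 reached the minimum only through their adenine libraries. Lif, leukaemia inhibitory factor, stood at 0.081, 0.093 and 0.186 FPKM on the standard diet and at 5.65, 7.33 and 4.22 FPKM on the adenine-enriched diet (log2 difference 2.56 ± 0.20, limma adjusted p = 0.00296). Clcf1, a ligand of the ciliary neurotrophic factor receptor, rose from 2.18 ± 0.386 to 12.9 ± 3.85 FPKM (limma adjusted p = 0.00432). Il11, interleukin-11, rose from 0.049 ± 0.047 to 1.75 ± 1.00 FPKM (limma adjusted p = 0.0157), but its call was lost without standard library 2 (0.0535) or 3 (0.0517). Cntf passed (0.0384) but lost its call with the replicate block (0.053), after median-of-ratios scaling (0.204) and on leaving out any library other than adenine 3 (0.0728 to 0.123). Il6 itself was below the minimum for testing, at 0, 0 and 0.069 FPKM on the standard diet and 0.554, 1.10 and 0.327 FPKM on the adenine-enriched diet, and Osm, oncostatin M, stood at 0.677, 0.568 and 0.110 FPKM on the latter. The groups of Il6 did not overlap, and those of Osm did. The rises in the list numbered 2 without standard library 2 or 3.

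All 7 receptor genes of the family were tested and 5 rose, with a median log2 difference of 1.08. Osmr, the oncostatin M receptor, rose from 4.34 ± 1.22 to 26.3 ± 5.74 FPKM (limma adjusted p = 0.00332). Il6ra, which gives the pathway its interleukin-6 specificity, rose from 1.82 ± 0.425 to 6.04 ± 1.37 FPKM (limma adjusted p = 0.00698). Il6st, which encodes gp130, rose from 38.9 ± 1.62 to 69.6 ± 10.2 FPKM (limma adjusted p = 0.00725). The other 2 were Il27ra (limma adjusted p = 0.00953) and Cntfr (0.0202), whose call was lost without standard library 2 (0.0666), standard library 3 (0.0669) or adenine library 2 (0.0547). Lifr and Il11ra1 did not pass, with log2 differences of -0.21 and -0.06, and both fell after median-of-ratios scaling (limma adjusted p = 0.0241 and 0.0477).

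Of the 17 JAK, STAT and inhibitor genes other than Socs3, all tested, 5 rose and none fell, with a median log2 difference of 0.55. That count of rises is near the share of all genes tested, 29.7%. After median-of-ratios scaling 3 rose, also near the share of all genes, 16.8%. Stat3, the factor that carries the signal to the nucleus, rose from 26.8 ± 4.79 to 76.9 ± 10.9 FPKM (log2 difference 1.49 ± 0.16, limma adjusted p = 0.00419). Ptpn6, a phosphatase abundant in blood cells, rose from 12.6 ± 0.670 to 32.6 ± 9.06 FPKM (limma adjusted p = 0.00664). Tyk2, a JAK family kinase, rose from 5.78 ± 0.812 to 12.1 ± 2.62 FPKM (limma adjusted p = 0.0112). Jak1 and Jak2 also passed (limma adjusted p = 0.0210 and 0.0221). Both lost the call after median-of-ratios scaling (0.103 and 0.0676) and without standard library 1, standard library 2, standard library 3 or adenine library 2 (0.0581 to 0.0728 for Jak1 and 0.0571 to 0.0769 for Jak2). The other SOCS genes did not follow Socs3 past the threshold, and Socs1 stood at 0.364, 0.060 and 0.495 FPKM against 1.69, 0.787 and 0.400 FPKM. The list's count was 3 without standard library 2 or adenine library 2, and 9 without library 3 of both diets.

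**Figure D3:**
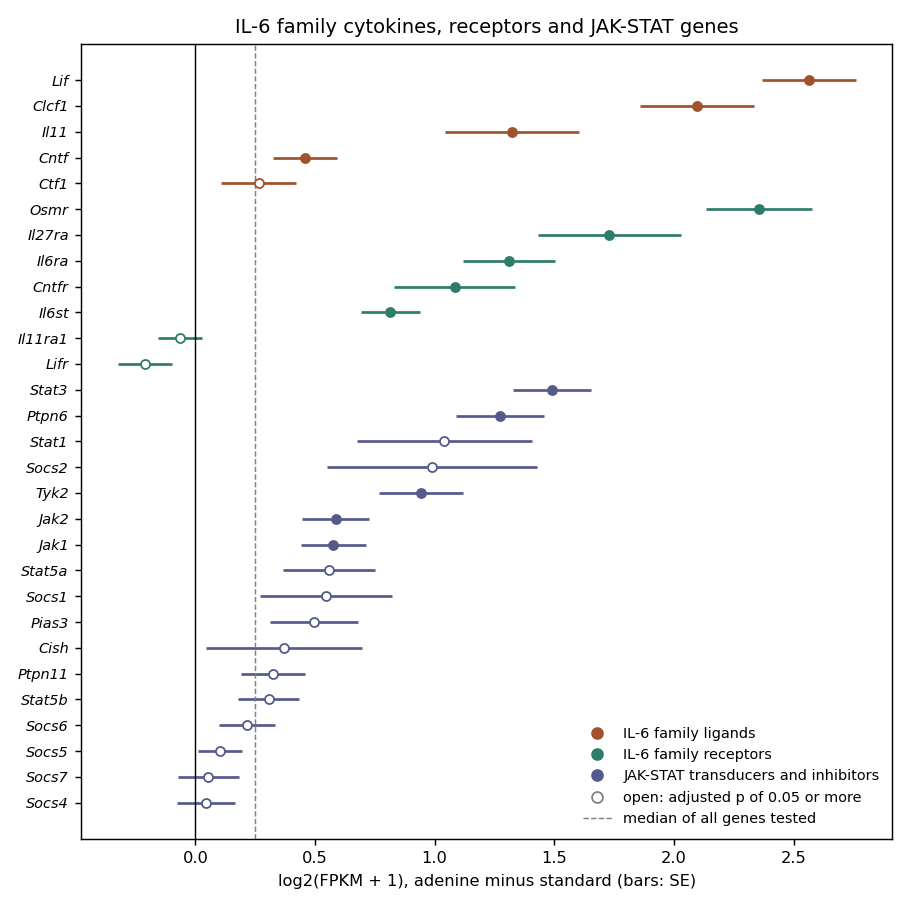
Log2 difference (adenine minus standard, on log2(FPKM + 1), bars SE) for the tested interleukin-6 family ligands, receptors and JAK-STAT genes; filled points have an adjusted p below 0.05 and the dashed line is the median of all genes tested. Lif and Osmr lie farthest to the right, at 2.56 and 2.35.

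In the interleukin-1 and tumour necrosis factor list, 6 of 7 tested genes rose (median log2 difference 1.33). Il1rn, the interleukin-1 receptor antagonist, rose from 0.166 ± 0.069 to 8.93 ± 4.49 FPKM (limma adjusted p = 0.00489). The receptor genes Tnfrsf1a (39.4 ± 6.16 to 86.3 ± 5.53 FPKM, limma adjusted p = 0.00428) and Tnfrsf1b (2.59 ± 0.287 to 18.8 ± 9.22 FPKM, limma adjusted p = 0.00553) rose as well. Of the 14 tested genes for transcription factors known at acute-phase promoters and their inhibitors, 11 rose (median log2 difference 1.11). Cebpd rose from 2.15 ± 0.215 to 10.4 ± 1.53 FPKM (limma adjusted p = 0.00296), Rela from 15.4 ± 1.34 to 33.6 ± 2.89 FPKM (0.00359) and Nfkb2 from 6.11 ± 0.814 to 27.7 ± 7.24 FPKM (0.00360). Cebpb passed more narrowly (limma adjusted p = 0.0352) and lost the call after median-of-ratios scaling (0.0683), without standard library 2 or 3 (0.0994 and 0.0951) and without adenine library 1 or 2 (0.0788 and 0.113). Hnf4a, a factor of hepatocytes and proximal tubules, stood at 196 ± 54.8 and 114 ± 35.9 FPKM (limma adjusted p = 0.0642), and it fell with the replicate block (0.00823), after median-of-ratios scaling (0.0455) and without adenine library 3 (0.0205). The count of this list was 7 without adenine library 2.

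The acute-phase proteins other than the members gave 9 rises among 12 tested of 21, with none falling (median log2 difference 1.97). Lcn2, neutrophil gelatinase-associated lipocalin and a marker of tubular injury, rose from 6.07 ± 1.67 to 340 ± 175 FPKM (limma adjusted p = 0.00324). C3, the central complement component, rose from 6.39 ± 1.26 to 172 ± 87.4 FPKM (limma adjusted p = 0.00324). Cp, ceruloplasmin, rose from 40.7 ± 5.75 to 177 ± 29.1 FPKM (limma adjusted p = 0.00296). The list was uneven in level. Serping1, the C1 inhibitor, averaged 238 FPKM on the adenine-enriched diet, and Cfb, complement factor B, averaged 129 and 142 FPKM on the 2 diets without passing, while 8 of the 21 genes stayed below 1 FPKM in every library. Orm2 and Hamp were at 0 in all 6, and Orm1 did not exceed 0.829 FPKM, Hpx 0.465 FPKM or Crp 0.216 FPKM. Among 6 tested genes of proteins that fall in blood plasma in the acute phase, Trf (transferrin, 7.41 ± 2.06 to 58.7 ± 22.6 FPKM, limma adjusted p = 0.00411) and Fetub rose and Apoa2 fell (5.38 ± 1.07 to 2.38 ± 0.771 FPKM, limma adjusted p = 0.0223). Those 2 rises are near the share of all genes tested, 29.7%, and after median-of-ratios scaling 1 rose and 2 fell. Fetub (limma adjusted p = 0.0456) lost its call after median-of-ratios scaling (0.0847) and without any 1 library other than adenine 1 (0.0505 to 0.116). Apoa2 lost its call without standard library 1 (0.0727), standard library 3 (0.0713) or adenine library 2 (0.0587).

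In the clotting and fibrin-lysis list, 16 of 25 genes were tested, 10 rose and 2 fell (median log2 difference 0.96). Pros1, protein S, a cofactor that limits clotting, rose from 13.6 ± 0.137 to 51.8 ± 10.9 FPKM (limma adjusted p = 0.00329). Plaur, the urokinase receptor (4.38 ± 0.495 to 11.3 ± 0.992 FPKM, limma adjusted p = 0.00402), and Thbd, thrombomodulin (10.7 ± 1.15 to 26.3 ± 3.79 FPKM, 0.00428), rose too. Proz, protein Z, the cofactor of the inhibitor that Serpina10 encodes, went the other way from Serpina10, falling from 2.42 ± 0.174 to 0.938 ± 0.231 FPKM (limma adjusted p = 0.00997). F13b, a carrier subunit of the fibrin cross-linking factor XIII, fell from 61.8 ± 13.3 to 26.2 ± 8.14 FPKM (limma adjusted p = 0.0146, 0.0502 without adenine library 2). F10, factor X, the protease that Serpina10 inhibits, stood at 0.026, 0.059 and 0.317 FPKM against 1.97, 0.868 and 0.812 FPKM. F10 passed (limma adjusted p = 0.0256) but lost the call without any 1 standard library (0.0508 to 0.0784) or adenine library 2 (0.0579). F2, prothrombin, whose product cleaves fibrinogen, did not exceed 0.529 FPKM in any library. The rises numbered 6 without any 1 standard library and 5 without adenine library 2, and the falls 1 without adenine library 2 and 4 without adenine library 3.

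Of the 9 receptors and binding partners of fibrinogen, all tested, 7 rose (median log2 difference 1.00). Itgam, the alpha chain of the myeloid integrin Mac-1, rose from 0.707 ± 0.018 to 13.3 ± 4.78 FPKM (limma adjusted p = 0.00329). Icam1, an endothelial and epithelial adhesion molecule, rose from 9.24 ± 0.439 to 40.4 ± 9.72 FPKM (limma adjusted p = 0.00324). Itga5, a fibronectin receptor chain, rose from 3.41 ± 0.194 to 10.8 ± 1.53 FPKM (limma adjusted p = 0.00332). Of 8 tested receptors or scavengers of serum amyloid A and haptoglobin, 6 rose and 1 fell (median log2 difference 1.01). Lrp1 (16.6 ± 3.06 to 55.0 ± 13.5 FPKM, limma adjusted p = 0.00538), Tlr2 (2.01 ± 0.497 to 9.94 ± 3.32 FPKM, 0.00569) and Ager (0.472 ± 0.055 to 2.15 ± 0.479 FPKM, 0.00663) had the smallest adjusted p of the rises. Cd36, a scavenger receptor and fatty acid carrier, fell from 240 ± 13.1 to 122 ± 50.2 FPKM (limma adjusted p = 0.0290), a call lost without any 1 standard library (0.0758 to 0.0828) or adenine library 2 (0.0877). Cd163, the haptoglobin-haemoglobin receptor of macrophages, stayed under 1 FPKM.

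The other clade A serpins gave 3 rises among 6 tested of 22 (median log2 difference 1.28), and 15 of the 22 stayed below 1 FPKM in every library. Serpina3g, 171 kb from Serpina3n in the same cluster, stood at 2.58, 2.62 and 3.84 FPKM against 60.4, 29.3 and 15.9 FPKM (limma adjusted p = 0.00709). Serpina1b and Serpina1a, genes for alpha-1-antitrypsin, rose from 6.06 ± 1.18 to 31.6 ± 8.17 FPKM and from 9.58 ± 2.90 to 27.6 ± 6.54 FPKM (limma adjusted p = 0.00358 and 0.00850). Their transcripts were 97.1% identical, and that of Serpina1b was 96.3% identical to that of Serpina1d, so the split of reads among the 3 is uncertain. Serpina1d stood at 72.5 ± 7.48 and 53.5 ± 9.71 FPKM (limma adjusted p = 0.0559), and it fell with the replicate block (0.0372) and after median-of-ratios scaling (0.0284). Without adenine library 3, 1 gene fell in each of the lists of clade A serpins, fibrinogen receptors and transcription factors.

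Depth, estimated from the steps between low FPKM values, was about 17.4 to 22.9 M fragments per library, and these estimates cover counting error only. Kidney identity was checked with 9 nephron genes, all present, whose summed level, mostly Umod, was 4526 to 5207 FPKM on the standard diet and 3865 to 5127 FPKM on the adenine-enriched diet. Of these genes 4 fell: the proximal tubule transporter Slc34a1 (1232 to 506 FPKM, limma adjusted p = 0.0287), the endocytic receptor Lrp2 (142 to 79.7 FPKM, 0.0497), the loop of Henle transporter Slc12a1 (689 to 421 FPKM, 0.0234) and Atp6v1g3 (26.7 to 14.8 FPKM, 0.00762). Nphs1, which encodes nephrin of podocytes, rose (limma adjusted p = 0.0124). Without any 1 standard library or adenine library 2, the calls of Slc34a1 (0.0532 to 0.0878), Slc12a1 (0.0541 to 0.0894) and Lrp2 (0.0620 to 0.141) were lost, and that of Lrp2 also without adenine library 1 (0.0811). Of 17 hepatocyte markers, 11 stayed below 1 FPKM in every library and Mup3 and Mup20 were at 0. Of 6 tested, Fetub rose, while Apoa2 and Apoc3 (12.8 ± 3.56 to 4.84 ± 0.714 FPKM, limma adjusted p = 0.00914) fell. The summed level was 72.3 to 98.0 FPKM on the standard diet and 45.0 to 78.0 FPKM on the adenine-enriched diet, and Apob made up most of it (49.8 to 65.2 FPKM and 30.6 to 55.6 FPKM). Alb, albumin, stood at 3.52, 4.96 and 5.86 FPKM against 2.67, 2.73 and 3.63 FPKM (limma adjusted p = 0.0779), and it fell with the replicate block (0.0407), after median-of-ratios scaling (0.0394) and after quantile normalization (0.0319). All 9 macrophage markers rose, with sums of 114 to 141 FPKM against 822 to 1914 FPKM, highest in adenine library 1, as Serpina3n, Hp and Socs3 were. Of 9 platelet markers 1 of 2 tested rose (Pf4, limma adjusted p = 0.0106). The other, Itga2b, averaged 7.86 FPKM on the standard and 5.56 FPKM on the adenine-enriched diet (limma adjusted p = 0.0965). It fell after median-of-ratios scaling (limma adjusted p = 0.0371). Gp9 was at 0, and the sums were 8.72 to 10.2 FPKM against 11.1 to 19.7 FPKM. Of 11 neutrophil markers neither of 2 tested passed, and the sums were 2.65 to 13.2 FPKM against 9.44 to 34.1 FPKM. Below the minimum, Cxcr2, Ltf and Mmp8 were higher in every adenine library than in any standard one. Mpo and Camp were at 0 in every adenine library, and Elane was at 0 throughout. The red blood cell markers, 6 genes, ranged from 8.97 to 69.2 FPKM against 24.4 to 141 FPKM, with none passing. The part of these cell types in the members' levels was not tested.

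Fat is another known source of haptoglobin and Saa3, and the libraries differed in adipocyte markers within each diet. Of 8 markers, 7 were tested and none passed, and the summed level, mostly Fabp4, was 116 to 196 FPKM on the standard diet and 90.1 to 186 FPKM on the adenine-enriched diet. Adipoq, the adipocyte hormone adiponectin, stood at 2.23, 3.03 and 0 FPKM on the standard diet and 2.39, 4.10 and 0 FPKM on the adenine-enriched diet. Cfd, adipsin, stood at 6.75, 11.6 and 0.157 FPKM against 13.8, 19.0 and 0 FPKM. Library 3 of each diet therefore held next to none of the Adipoq and Cfd transcripts, and it was also the library with the lowest Hp of its diet. Fabp4 did not follow, at 115 FPKM in standard and 89.3 FPKM in adenine library 3, and at 79.3 FPKM in adenine library 1. Plin4 was lowest in library 3 of each diet but was still present, at 0.413 and 0.689 FPKM. With Adipoq at 0 in library 3 of both diets, Hp there was 0.413 FPKM on the standard and 4.33 FPKM on the adenine-enriched diet. Saa3 was 0.189 and 0 FPKM in the same libraries, which are 1 a diet. The part of fat in the levels of Hp and Saa3 was not tested.

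**Figure D4:**
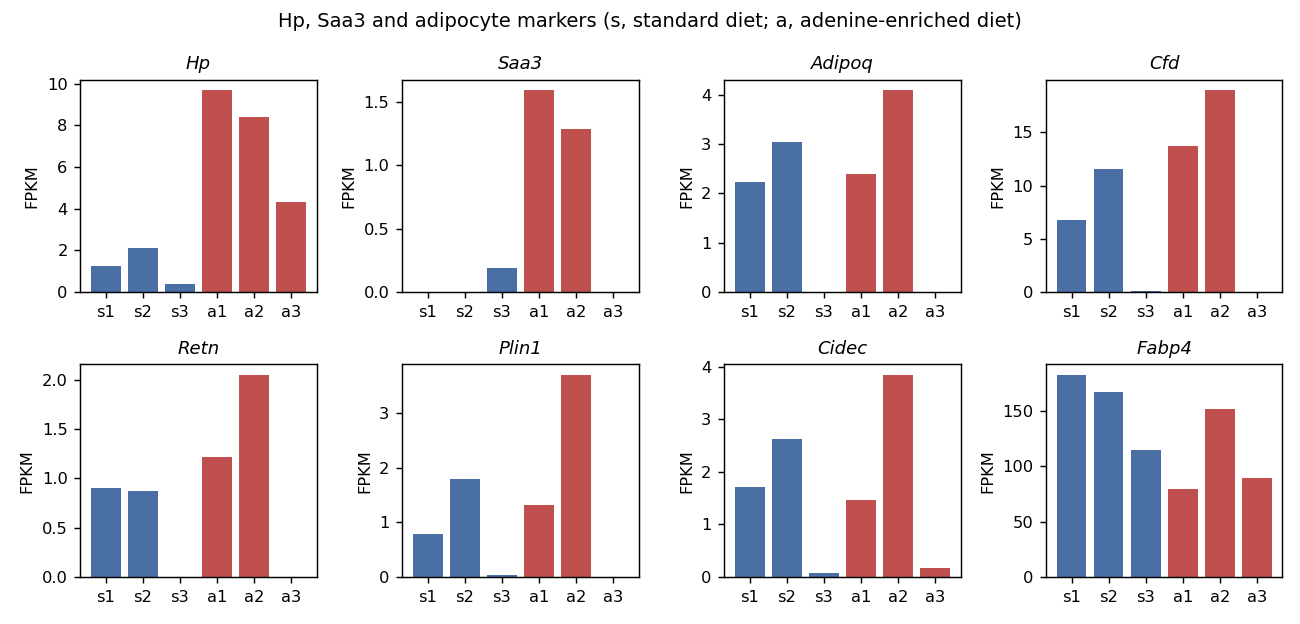
FPKM of Hp, Saa3 and 6 adipocyte markers in each library (s, standard; a, adenine; each panel has its own axis from 0). Adipoq, Retn, Cfd, Plin1 and Cidec are at or near 0 in library 3 of both diets, where Hp is also lowest within each diet. Fabp4 is not near 0 there.

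Neighbouring genes were examined within 200 kb of each member, measured between gene midpoints. Around them lay 32 other tested genes, of which 11 rose and 2 fell. These counts are near the shares of all genes tested, 29.7% up and 6.84% down. Neither gene that flanks the fibrinogen cluster passed. Plrg1, a splicing factor gene 17.9 kb from Fgb, stood at 19.1, 20.2 and 20.2 FPKM against 29.6, 22.2 and 23.3 FPKM (limma adjusted p = 0.0861), and Lrat, the retinol esterifying enzyme on the other side, at 1.501 and 0.802 FPKM on average (0.0534). Lrat fell after median-of-ratios scaling (limma adjusted p = 0.0265), and Plrg1 did not pass there. In the window around Serpina10, Serpina1b and Ifi27 rose, and Ifi27l2a, Ppp4r4, Serpina1f and Serpina1d did not pass. In that around Serpina3n, Serpina3g rose, and Serpina3f stood at 0.203, 0.181 and 0.471 FPKM against 4.48, 1.04 and 0.902 FPKM without passing (limma adjusted p = 0.0728).

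Around the Saa genes, Saal1 rose (log2 difference 0.54) and Ldha fell (-0.38), while Hps5, Gtf2h1, Gm9392, Tsg101, Uevld and Sergef did not pass. Around Hp, Dhx38 (0.45) and Ist1 (0.25, but -0.04 after median-of-ratios scaling) rose, and Txnl4b, Dhodh, Zfp821 and Atxn1l did not pass. Around Socs3, Birc5, a gene of cell division, rose from 0.657 to 4.07 FPKM on average (limma adjusted p = 0.00628) and Pgs1 from 13.3 to 21.6 FPKM (0.00947). Syngr2, Tk1 and Tha1 (log2 difference 0.41, but -0.02 after quantile normalization) rose too, Afmid fell (log2 difference -0.89), and Tmc6 and Tmc8 did not pass. Birc5 had the largest log2 difference of the neighbours of Hp, the Saa genes and Socs3, at 1.59. Of the 13 calls, 9 were lost on leaving out at least 1 library, and the count was 6, 6 and 4 without standard library 1, 2 or 3, 8 and 5 without adenine library 1 or 2, and 16 without adenine library 3. The calls of Serpina1b, Serpina3g, Birc5 and Pgs1 held without each library in turn, and that of Pgs1 was lost with the replicate block and median-of-ratios scaling together (0.0528). With that scaling alone the calls of Ifi27 (limma adjusted p = 0.390), Saal1 (0.0958), Dhx38 (0.245), Ist1 (0.717), Tha1 (0.333) and Syngr2 (0.0584) were lost, and Lrat, Serpina1d and Hps5 (0.0434) fell, which left 10 calls.

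**Figure D5:**
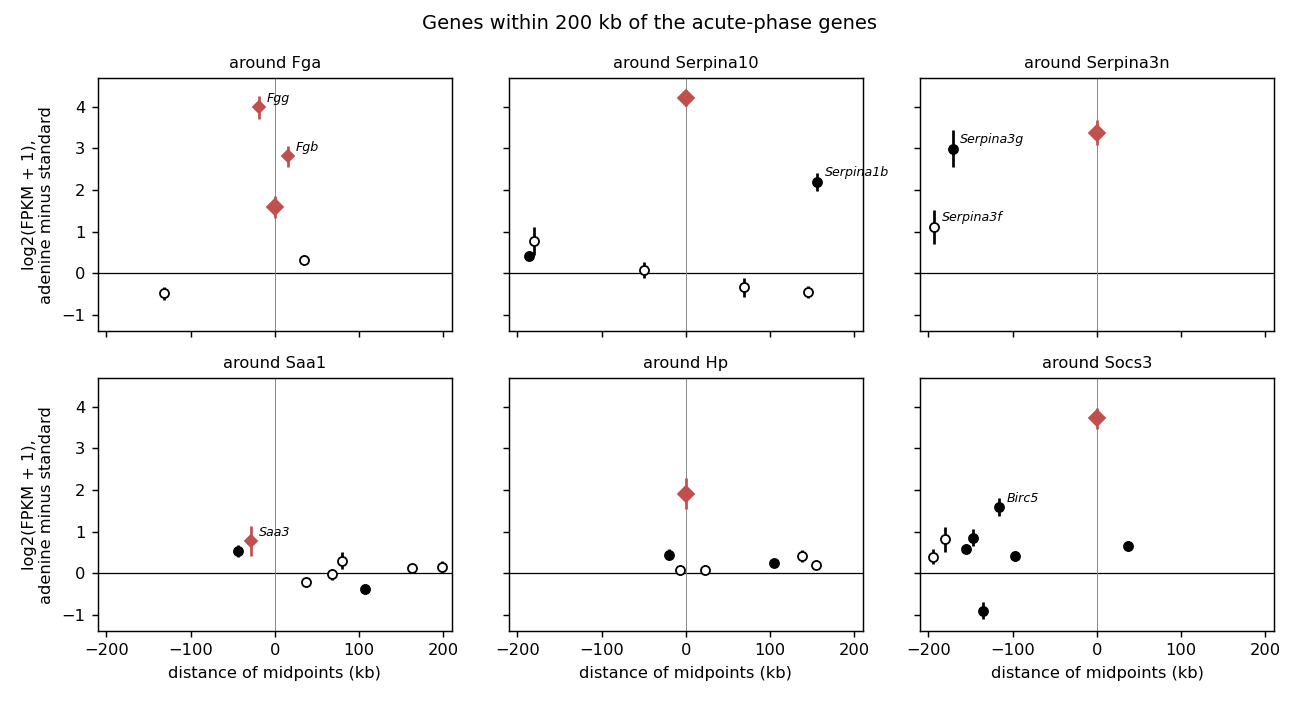
Log2 difference (adenine minus standard, on log2(FPKM + 1), bars SE) of genes within 200 kb, against the distance of their midpoints in kb; red diamonds are the genes described here and filled black points neighbours with an adjusted p below 0.05. Around Fga, Fgg and Fgb stand far above Lrat and Plrg1.

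The genes most like the fibrinogen chains were sought by the root mean square difference, over the 6 libraries, from the mean profile of Fga, Fgb and Fgg on the log2(FPKM + 1) scale, each centred on its standard mean. The 8 nearest, outside the members and immunoglobulin segments, were Sprr2f (0.16), Clca2 (0.24), Lif (0.25), Ccl20 (0.26), Il1f6 (0.29), Gc (0.29), Cfi (0.30) and Clu (0.31). Sprr2f stood at 0, 0 and 0.298 FPKM on the standard diet and at 4.76, 11 and 4.96 FPKM on the adenine-enriched diet. It shared the high adenine library 2, while its standard values were too low to rank those libraries. Clu, clusterin, was the most abundant of the 8, at 59.2, 87.8 and 90.7 FPKM against 712, 927 and 492 FPKM. Gc, the vitamin D binding protein known from liver, stood at 3.30, 3.64 and 6.60 FPKM against 36.8, 34.3 and 21.4 FPKM. Among the members Fgb was closest to the mean profile (0.11), while Fgg (0.84) and Fga (0.85) lay above and below it, Serpina3n at 0.68 and Socs3 at 0.77. The same search around Saa1 and Saa2 was not informative, because their mean profile was nearly flat, and no gene is named from it.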

How the data were processed

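RNA of 6 whole kidneys was sequenced, 3 a diet, as 100 bp paired-end reads from 1 µg of RNA, per the labels' protocols. Tools named, per the submitters' processing notes, were bcl2fastq 2.0, Cufflinks 2.1.1 and TopHat, and the builds mm10 and GRCm38. Annotation and strand handling: not given in the sources used here. Values are FPKM per gene, as the authors deposited them. A second table, with 6 value columns of samples outside the list, was not used. No label says that samples are separate animals, so p-values reflect only how far these samples spread, which may be technical.

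The members and gene lists were chosen with earlier results of these data known. Differences were fitted with limma 3.58.1 (R 4.3.3; variance trend, two-sided) on log2(FPKM + 1) for genes averaging 0.5 FPKM or more, with Benjamini-Hochberg adjustment over all 15431 genes and a threshold of 0.05; this scale understates changes of low genes. Folds are ratios of mean FPKM. The code was checked on simulated data. Genes named were the 10 members, up to 3 rises and 3 falls with the smallest adjusted p of each list, tested neighbours within 200 kb and the 8 genes nearest the fibrinogen profile; others were chosen after their values were seen. FPKM keep no counts. In low values, 68.3% to 74.8% lay within 0.15 of a whole fragment (nominal length 200 bp), too few for a count test. Identity between near copies came from local alignment of GENCODE M21 transcripts. Same-numbered samples of the diets deviated together (correlations 0.257, 0.143 and 0.181) and were treated as paired in the block alternatives only. No label states a pairing, and the main model has no block. Alternatives changed the pseudocount, filter, scaling, variance trend and block, or left out libraries. A result among the marker genes is not reported here.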

Additional observations from a re-analysis of the deposited data

How the results depend on the processing

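The 7 members with separate groups kept their direction under every alternative run. Leaving out a library cannot make separate groups overlap or reverse, so the count of 7 to 8 there was no check. The pseudocount, filter, variance trend and block could not change it either. Only the scalings could, and the number was 7 after median-of-ratios scaling and after quantile normalization. Of 124 comparisons of a member's log2 difference with its value under an alternative, 12 moved by more than the spread between replicates, and none reversed. The number of genes past the threshold, 5637, ranged from 2119 to 7046 on leaving out each library in turn; it was 4942 after median-of-ratios scaling, 4377 after quantile normalization, and 5877 without library 3 of both diets, a setting added after seeing the data. The 72 calls in the pathway lists became 51 to 80 on leaving out each library and 80 without library 3 of both diets. The 13 calls among neighbours became 8 after quantile normalization and 4 to 16 on leaving out each library. With the replicate block, which assumes that same-numbered samples are paired, 5957 genes, 76 list genes and 12 neighbours passed. The block changed no other call of a named gene than those given above and those of Zfp821, Ldha, Ist1 and Tha1. Zfp821 then rose (limma adjusted p = 0.0458), and the calls of Ldha, Ist1 and Tha1 were lost (0.0600, 0.0561 and 0.0660). Ist1 reversed to -0.0407 after median-of-ratios scaling, with or without the block, Tha1 to -0.0247 and Cntf to -0.0583 after quantile normalization; the cause was not tested. Depth limits Saa1, Saa2 and Il6, and 3 libraries a diet limit every test.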
